A study of Mus musculus with 16 samples.

Results

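Complexins are the proteins encoded by *Cplx1*, *Cplx2*, *Cplx3* and *Cplx4*, and these 4 genes were taken by name from the 24407 genes with counts in the vomeronasal organ (VNO) of the mouse. They were chosen with the difference of *Cplx1* between High Runner (HR) and Control lines already known, so the HR and Control levels of *Cplx1* are given as a description, without a test. RNA was measured in 16 libraries. Each library was a pool of VNOs from 3 mice of the same sex and line, and each of 8 lines gave 1 male and 1 female pool. The 4 HR lines (lines 3, 6, 7 and 8) had been bred for high voluntary wheel running, and the 4 Control lines (lines 1, 2, 4 and 5) had been bred without that selection. All lines came from the outbred Hsd:ICR strain, and the mice were 12 weeks old and of generation 88. A line is a separately bred population, so the line is the replicate here, and both libraries of a line share its genetic background.

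Complexins are small proteins of the presynaptic terminal. They bind the assembled SNARE complex, the bundle of syntaxin, SNAP-25 and synaptobrevin helices that draws a vesicle onto the plasma membrane, and they act together with the calcium sensor synaptotagmin to hold vesicles ready and to allow fast release. *Cplx1* and *Cplx2* are the forms known from most synapses of the brain, while *Cplx3* and *Cplx4* carry a lipid anchor site and are known from the ribbon synapses of the retina. The VNO holds the cell bodies and dendrites of vomeronasal sensory neurons, whose axon terminals lie in the accessory olfactory bulb, so a presynaptic gene is read here from RNA in the organ and not at the synapse.

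In the GENCODE annotation of GRCm38, *Cplx1* (ENSMUSG00000033615.9) lies at chr5:108518554-108550024 on the minus strand with 4 exons, and *Cplx2* (ENSMUSG00000025867.8) at chr13:54371349-54383917 on the plus strand. *Cplx3* (ENSMUSG00000039714.9) lies at chr9:57599992-57606281 on the minus strand. The 4 genes are on separate chromosomes, and no annotated gene overlaps any of them. Of the 75-nucleotide words in their exons, 100% were found in no other gene for *Cplx1*, *Cplx3* and *Cplx4*, and 97.4% for *Cplx2*. The reads of the 4 genes can therefore be told apart from each other.

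The stretches of 250 bases directly before the start of *Cplx1*, *Cplx2* and *Cplx3* are shown because these genes lie on separate chromosomes and stood at very different levels in the VNO. They were taken from RefSeq (GRCm38.p6) and are written 5′ to 3′ on the strand of the gene. The window of *Cplx1* is chr5:108550028-108550277 (minus strand), that of *Cplx2* chr13:54302306-54302555 (plus strand) and that of *Cplx3* chr9:57606282-57606531 (minus strand). Capitals mark a GC box (GGGCGG, read on both strands).
Cplx1 promoter: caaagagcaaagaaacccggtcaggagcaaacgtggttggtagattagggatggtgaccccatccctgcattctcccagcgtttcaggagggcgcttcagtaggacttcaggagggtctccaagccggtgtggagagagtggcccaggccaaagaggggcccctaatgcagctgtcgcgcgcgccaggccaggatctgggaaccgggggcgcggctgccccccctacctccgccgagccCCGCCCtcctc
Cplx2 promoter: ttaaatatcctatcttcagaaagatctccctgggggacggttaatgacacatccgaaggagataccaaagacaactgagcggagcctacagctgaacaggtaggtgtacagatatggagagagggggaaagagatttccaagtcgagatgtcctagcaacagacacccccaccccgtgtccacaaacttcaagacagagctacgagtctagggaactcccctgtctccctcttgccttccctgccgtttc
Cplx3 promoter: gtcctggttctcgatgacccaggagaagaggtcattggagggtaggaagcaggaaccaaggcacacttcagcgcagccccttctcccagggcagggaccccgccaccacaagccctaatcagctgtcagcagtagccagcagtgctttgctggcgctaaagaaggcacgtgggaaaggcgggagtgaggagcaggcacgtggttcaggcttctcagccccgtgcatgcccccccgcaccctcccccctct
The *Cplx1* window held 15 CpG dinucleotides and 64.8% G and C, against 7 CpG in *Cplx2*, 9 in *Cplx3* and a median of 6 over 32851 promoter windows of the same length. Its single GC box is a motif found in 32.7% of those windows. The *Cplx3* window held 2 matches of the palindromic E-box CACGTG, which was present in 6.02% of all windows. No match of the TATA box (TATAAA), of the cyclic AMP response element (TGACGTCA) or its shorter core (TGACG), or of the early B-cell factor motif was found in the 3 windows on either strand, and these had a match in 12.4%, 1.55%, 17.8% and 0.779% of all windows. The RefSeq start of *Cplx2* lies 68793 bases before the start of the GENCODE gene. These matches describe letters, and no binding was measured.

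The libraries held from 15998552 to 70875276 counts on genes, with a median of 37366329. *Omp*, which encodes olfactory marker protein of mature sensory neurons, stood at 2050 ± 403 in the HR and 1994 ± 300.5 CPM in the Control lines (between-line SD, n = 4 each). CPM here is a count scaled to library size with TMM factors. The G protein subunits of the basal and apical sensory neurons, *Gnao1* and *Gnai2*, stood at 416 ± 50.8 and 1113 ± 185 CPM over all 8 lines (SD). *Trpc2*, the transduction channel of vomeronasal neurons and another defining gene of the tissue, was listed at 0 counts in all 16 libraries.

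*Cplx2* was the main complexin of the VNO. Its level per gene length was 21.8 ± 2.13 RPKM (reads per length of gene and size of library; SD, n = 8 lines), above that of 82.9% of 24350 genes. *Cplx1* stood at 0.369 ± 0.226 RPKM, above 36.9% of genes, and its SD over all lines includes the HR and Control difference described below. *Cplx3* and *Cplx4* stood at 0.00710 ± 0.0132 and 0.00505 ± 0.00984 RPKM. On log2(RPKM + 0.1), a scale that understates differences of genes near 0, the difference of *Cplx2* over *Cplx1* was 5.71 ± 0.776 (SD, n = 8 lines), positive in 8 of 8 lines (sign-flip permutation test, exact and two-sided, p = 0.00781, adjusted over 3 pairs of neighbours in the order 0.0117). That of *Cplx1* over *Cplx3* was 1.97 ± 0.638, also positive in 8 of 8 lines (exact p = 0.00781, adjusted 0.0117). Here 0.00781 is the smallest p that 8 lines can give. *Cplx3* and *Cplx4* did not differ beyond the spread between lines, with a difference of 0.03 ± 0.224 (exact p = 0.75). The male and female RPKM tables were scaled separately by the authors, and each line mean averages 1 library of each.

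**Figure D1:**
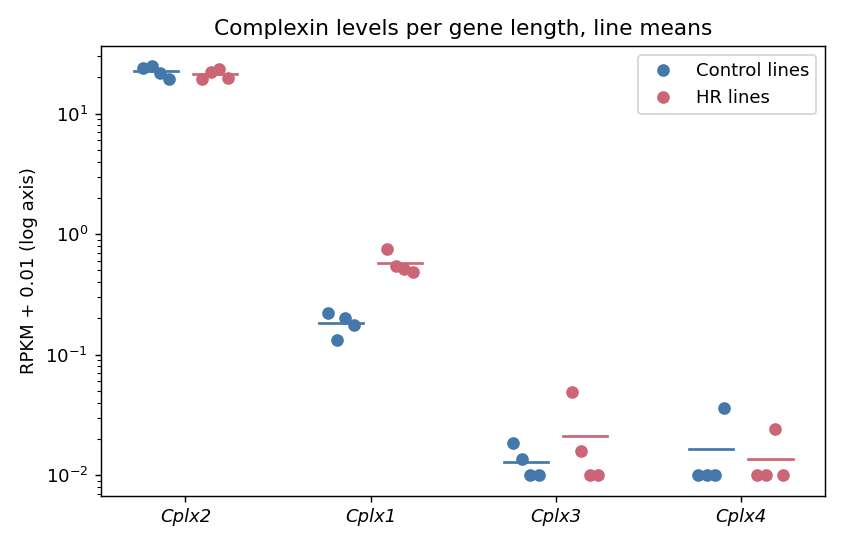
Level per gene length of the 4 complexins (RPKM + 0.01, log axis), with each point the mean of the male and female library of a line and each bar the mean of 4 lines. *Cplx2* lies near 20 RPKM in both groups, *Cplx1* lies between 0.121 and 0.213 RPKM in Control lines and between 0.476 and 0.746 RPKM in HR lines, and points at 0.01 are lines listed at 0.

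The partners of complexin in the SNARE machinery were also abundant. Synaptobrevin 2 (*Vamp2*) stood at 256 ± 39.8 RPKM, *Snap25* at 185 ± 23.3 RPKM and the calcium sensor *Syt1* at 84.4 ± 5.66 RPKM (SD, n = 8 lines). Syntaxin 1A (*Stx1a*) stood at 48.8 ± 4.52 RPKM. *Nsf*, the ATPase that takes SNARE complexes apart, stood at 27.4 ± 1.91 RPKM. The priming factor *Unc13a* was lower, at 10.3 ± 1.26 RPKM.

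*Cplx1* was low in every library and higher in the HR lines. Control line 1 had 32 counts in the female and 26 in the male library, line 2 had 5 and 14, line 4 had 18 and 11, and line 5 had 5 and 8. HR line 3 had 40 counts in the female and 61 in the male library, line 6 had 39 and 31, line 7 had 55 and 34, and line 8 had 49 and 22. In all, the 8 HR libraries held 331 counts of *Cplx1* and the 8 Control libraries 119, from libraries of unequal depth.

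Scaled to library size, the Control female libraries of lines 1, 2, 4 and 5 stood at 0.444, 0.258, 0.455 and 0.319 CPM and the male libraries at 0.368, 0.261, 0.289 and 0.315 CPM. The HR female libraries of lines 3, 6, 7 and 8 stood at 1.47, 1.16, 1.16 and 1.32 CPM and the male libraries at 1.44, 0.961, 0.827 and 0.570 CPM. The groups did not overlap, since the highest Control library (line 4 female, 0.455 CPM) lay below the lowest HR library (line 8 male, 0.570 CPM). Of all 16507 genes tested, 9 (0.0545%) had every HR library above every Control library. *Cplx1* was selected on this contrast, and the count of 9 genes is given as background only. The gap was small beside the counting error, as the 95% Poisson interval of line 8 male, 0.357 to 0.862 CPM from 22 counts, covers the values of 3 Control libraries.

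The line means of *Cplx1* were 0.406, 0.259, 0.372 and 0.317 CPM in Control lines 1, 2, 4 and 5 and 1.46, 1.06, 0.993 and 0.944 CPM in HR lines 3, 6, 7 and 8. Their means were 1.11 ± 0.233 in the HR and 0.339 ± 0.0645 CPM in the Control lines (between-line SD, n = 4 each), a ratio of 3.29. The log2 fold change of HR over Control fitted by edgeR was 1.67, with a standard error (SE) of 0.19. That fit takes the 16 libraries as separate, and the SE was 0.24 with the libraries of each line summed and 0.26 with the line as a random effect in limma. HR line 3 was the highest of all lines in both sexes, and without it the log2 fold change was 1.498. In a bulk tissue, more cells that express a gene and more RNA in each of them cannot be told apart.

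**Figure D2:**
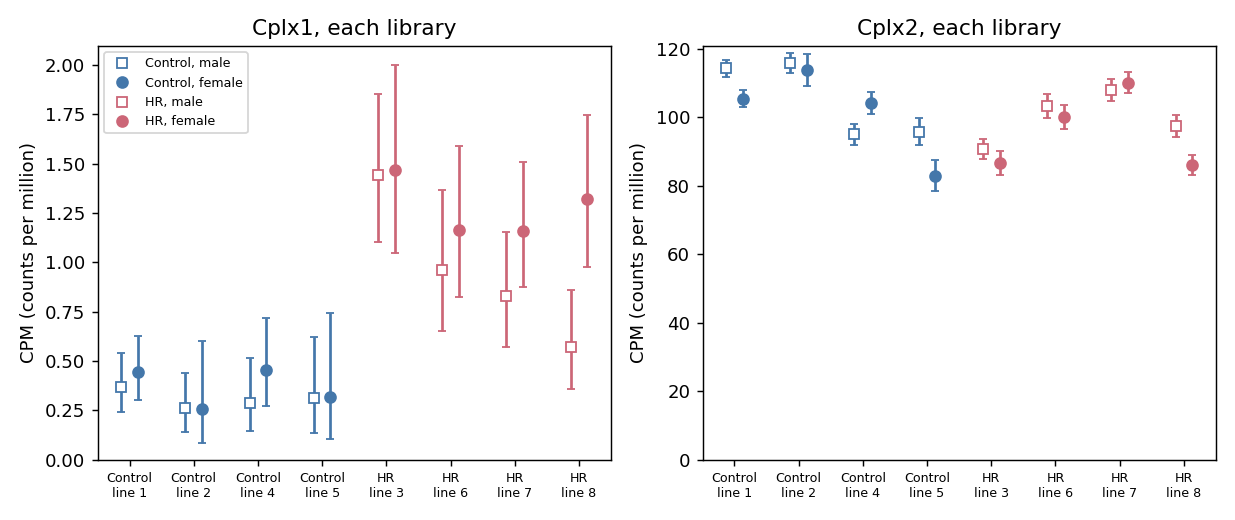
CPM of *Cplx1* (left) and *Cplx2* (right) in each of 16 libraries, ordered by line, with 95% Poisson intervals that cover counting error only. For *Cplx1* the 8 HR libraries sit between 0.570 and 1.47 CPM, above all 8 Control libraries, while for *Cplx2* the HR and Control libraries share the range from 86.1 to 110.1 CPM.

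The spread of *Cplx1* between libraries was set against counting noise. The variance of its counts was 0.749 times that of Poisson sampling in the Control libraries and 3.27 times in the HR libraries. The coefficient of variation between line means was 19.0% in Control lines and 20.9% in HR lines. At 5 to 32 counts per Control library, differences among Control lines were not detectable at this depth.

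*Cplx2* showed no such difference. In Control lines 1, 2, 4 and 5 its line means were 109.9, 114.8, 99.6 and 89.4 CPM, and in HR lines 3, 6, 7 and 8 they were 88.6, 101.7, 109.0 and 91.7 CPM. The groups overlapped almost wholly, with 97.8 ± 9.32 in the HR and 103 ± 11.3 CPM in the Control lines (between-line SD, n = 4 each), from libraries with 1301 to 8070 counts of the gene. Its fitted log2 fold change was -0.08 (SE 0.08, 95% interval -0.24 to 0.08, adjusted p = 0.9997 by the quasi-likelihood test of edgeR, adjusted over all genes tested after Benjamini and Hochberg). At that threshold 0.0242% of the 16507 genes tested (4 genes) differed between HR and Control lines. The interval covers a fall of *Cplx2* down to -0.24 and a rise up to 0.08 on the log2 scale. It comes from a fit that takes the 16 libraries as separate, so it may be too narrow. The SE was 0.10 with the libraries of each line summed and 0.09 with the line as a random effect in limma.

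The share of *Cplx1* among the counts of *Cplx1* and *Cplx2* together does not depend on the scaling of a library. With both libraries of a line summed, it was 0.369% (95% exact binomial interval 0.280 to 0.477) in Control line 1, 0.225% (0.136 to 0.351) in line 2, 0.374% (0.251 to 0.536) in line 4 and 0.347% (0.185 to 0.593) in line 5. It was 1.60% (1.31 to 1.95) in HR line 3, 1.04% (0.808 to 1.31) in line 6, 0.913% (0.734 to 1.12) in line 7 and 1.01% (0.789 to 1.27) in line 8. Even in the HR lines *Cplx1* was a small part of the complexin RNA, at 2.10% to 3.73% of the summed RPKM of the 4 genes, against 0.490% to 0.885% in Control lines.

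*Cplx3* and *Cplx4* were at or near the limit of detection. *Cplx3* had 13 counts in all, 7 in HR and 6 in Control libraries. They came from Control lines 1 and 2, with 2 and 1 counts in each library of the line, from HR line 3, with 4 in the female and 2 in the male library, and from HR line 6, with 1 in the female library. *Cplx4* (ENSMUSG00000024519.6), on the minus strand of chromosome 18 from 65955722 to 65970237, had 4 counts in all, 2 in the male library of Control line 5 and 2 in the female library of HR line 7. Every other library was at 0 for that gene, which allows a level of up to 3 counts, or 0.0416 to 0.191 CPM depending on the library. Both genes fell under the filter on low counts, and no difference between HR and Control lines was detectable at this depth.

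*Cplx1* was somewhat higher in female libraries, without passing the test across genes. The female library was higher than the male library in 7 of 8 lines, by 0.24 on the log2 scale in Control line 1, 0.57 in line 4 and 0.01 in line 5, and by 0.03, 0.26, 0.46 and 1.14 in HR lines 3, 6, 7 and 8. In Control line 2 the difference was -0.02. The largest of these, in HR line 8, was 1.32 against 0.570 CPM. The fitted log2 difference of females over males was 0.37 (SE 0.19, 95% interval -0.04 to 0.77, adjusted p = 0.673 in edgeR), in a comparison where 0.188% of 16507 genes (31 genes) passed. With the line as a replicate block 0.545% of genes (90 genes) passed, and *Cplx1*, at an adjusted p of 0.28 by the edgeR test, was not among them. A sign-flip permutation test over the 8 lines, exact and two-sided, gave p = 0.0234, unadjusted, and 9.36% of the genes tested had a higher female library in 7 or 8 of 8 lines. For *Cplx2* the log2 difference was -0.06 (SE 0.08, adjusted p = 0.913 by the edgeR test), with the female library higher in 2 of 8 lines. The libraries of each sex lie in a table of their own and may have been sequenced together, so sex and sequencing run cannot be told apart.

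The difference between HR and Control lines was not shown to depend on sex for either gene. For *Cplx1* the difference of females over males was 0.47 ± 0.481 on the log2 scale in HR lines and 0.20 ± 0.272 in Control lines (between-line SD, n = 4 each), which differ by 0.27 (exact permutation of the line labels, two-sided, p = 0.4, where 0.0286 is the smallest p possible). For *Cplx2* the exact permutation test gave p = 0.886. The edgeR test of the interaction called none of 16757 genes at an adjusted p under 0.05 (0%), while 77 (0.46%) had an unadjusted p under 0.05.

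Of 120 genes of vesicle release that were listed by function, 119 were in the count tables and 109 passed the filter on low counts. None of these differed between HR and Control lines at an adjusted p under 0.05 in the edgeR test, and 2 of 109 had an unadjusted p under 0.05, a share of 1.83% beside 3.3% of all genes tested. The median log2 fold change of the 109 genes was 0.03 and that of all genes 0.00, and 67 of the 109 were above 0. DESeq2 called 0.182% of 16455 genes between HR and Control lines and none on these lists. The absolute log2 fold change was over 1 in 1 of the 109 genes, and in 0.927% of all genes tested. Between females and males none of the 109 passed, and 11 had an unadjusted p under 0.05 in edgeR (10.1%, beside 8.08% of all genes tested).

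The core SNARE genes were close to 0. The log2 fold change was 0.11 (SE 0.07) for *Stx1a*, 0.08 (0.10) for *Snap25* and 0.08 (0.13) for *Vamp2*, with 0.13 (0.07) for *Stx4a*, a syntaxin of many cell types. Of 17 SNARE genes tested, 11 were above 0, with a median of 0.04. The factors of SNARE assembly were similar, with 0.16 (0.09) for *Unc13a* and 0.23 (0.12) for *Erc2*, a scaffold of the active zone. The median of the 26 assembly and active zone genes tested was 0.02. Of the genes that take SNARE complexes apart, *Nsf* stood at 0.07 (0.06) and *Napb*, a SNAP adaptor of *Nsf*, at 0.17 (0.09).

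Among the calcium sensors, the log2 fold change was 0.06 (SE 0.07) for *Syt1*, the synaptotagmin of fast release, and 0.13 (0.14) for *Doc2b*. *Syt3*, a synaptotagmin with high calcium affinity, stood at 0.30 (0.08; unadjusted p = 0.00188, adjusted p = 0.629 in edgeR). With DESeq2 it stood at 0.29 (SE 0.08, adjusted p = 0.0746), and no other alternative gave *Syt3* an adjusted p under 0.481. Its line means were 7.42, 7.05, 7.03 and 7.29 CPM in Control lines 1, 2, 4 and 5 and 9.61, 8.51, 8.68 and 8.71 CPM in HR lines 3, 6, 7 and 8. The HR and Control libraries overlapped, with 8.59 CPM in the male library of Control line 5 and 7.60 CPM in the female library of HR line 7.

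Among the vesicle proteins, *Syngr1*, a membrane protein of synaptic vesicles, stood at 195 ± 28.9 in the HR and 138 ± 33.1 CPM in the Control lines (between-line SD, n = 4 each), a log2 fold change of 0.50 (SE 0.14, unadjusted p = 0.00337, adjusted p = 0.792 in edgeR). The edgeR fit takes the 16 libraries as separate, so this unadjusted p and that of *Syt3* may be too small. *Rab3c*, a small GTPase of vesicles, stood at 0.22 (0.11). Of the presynaptic calcium channels, *Cacna1e* varied most, with 1.95 ± 2.24 in the HR and 4.38 ± 2.73 CPM in the Control lines and a log2 fold change of -1.17 (SE 0.60, adjusted p = 0.9997 in edgeR), and the channel subunit *Cacnb4* stood at 0.09 (0.06).

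**Figure D3:**
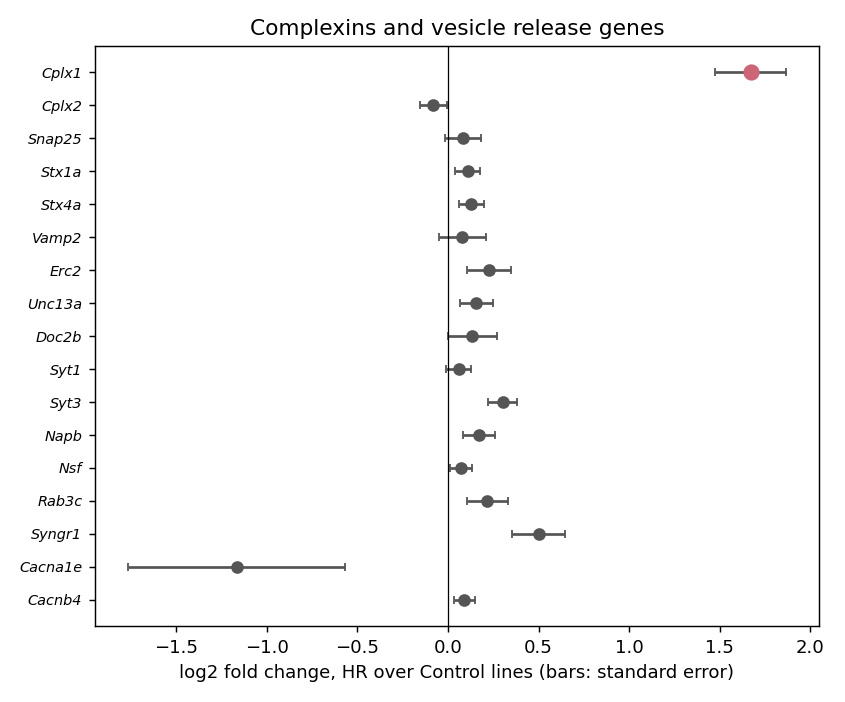
Log2 fold change of HR over Control lines for *Cplx1*, *Cplx2* and 15 genes of vesicle release, with bars for the standard error. *Cplx1* (coloured point) sits at 1.67, *Cplx2* at -0.08, and the SNAREs, assembly factors and calcium sensors between 0.06 and 0.30.

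Markers of the cells that a VNO sample can hold were set beside *Cplx1*. No marker of any of 12 lists differed between HR and Control lines at an adjusted p under 0.05 in the edgeR test. Of all 16507 genes tested, only 4 (0.0242%) did, so few markers could be called in any case. Of the 12 genes of mature vomeronasal neurons, 11 were tested, with a median log2 fold change of 0.05, and their summed level was 5949 to 8929 CPM in HR and 4970 to 9216 CPM in Control libraries. For trigeminal and autonomic neurons, whose fibres and ganglia are another possible source of *Cplx1*, 9 of 20 genes were tested, 4 of them above 0, with a median of -0.03. Their summed level was 787 to 1160 CPM in HR and 826 to 1229 CPM in Control libraries, most of it from *Uchl1*, *Scn9a* and *Prph*, while *Calca* and *Trpv1*, which mark sensory neurons of pain and heat, stood under 1 CPM in both groups. For retinal and ribbon synapse cells, where *Cplx3* and *Cplx4* are known, 5 of 10 genes were tested with a median of -0.08, and the summed level was 27.8 to 42.4 CPM in HR and 28.2 to 39.6 CPM in Control libraries.

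The other lists also overlapped between the groups. The median log2 fold change was -0.10 over 12 genes of immature neurons and progenitors, 0.08 over 9 of sustentacular cells, 0.01 over 8 of main olfactory neurons and -0.35 over 9 of solitary chemosensory cells. It was -0.13 over 8 genes of glia, 0.08 over 8 of immune cells, -0.38 over 4 of blood and vessels (the other 4 of that list, all globin genes, were listed at 0 in every library), 0.17 over 4 of muscle and 0.52 over 7 of glands. The glands varied most between libraries, from 79.6 to 7249 CPM in HR and from 180 to 2439 CPM in Control libraries. Some single markers had an unadjusted p under 0.05 by the edgeR test, as did 3.3% of all genes tested. They were *Mbp* at -0.22 (1 of 8 glia genes tested), *Dcpp1* at 3.49 (1 of 7 of glands) and *Acta1* at 0.82 (1 of 4 of muscle). The others were *Pou2f3* at -1.16 (1 of 9 of chemosensory cells) and *Neurod1* at -0.33 (1 of 12 of progenitors). The part of any of these cell types in the level of *Cplx1* was not tested.

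No gene near *Cplx1* passed the test between HR and Control lines. Within 250 kb of *Cplx1*, 24 genes are annotated, 15 of them were in the count tables and 13 passed the filter. None had an adjusted p under 0.05 in edgeR or DESeq2, but edgeR called only 4 of 16507 genes (0.0242%). Few neighbours could therefore be called in any case. Of the 13, 3 (23.1%) had an unadjusted p under 0.05 in edgeR, beside 3.3% of all genes tested. That fit takes the 16 libraries as separate, so these p may be too small. The nearest gene with counts on the side of lower coordinates, *Pcgf3* (11.6 kb away), stood at 46.7 ± 1.504 in the HR and 50.5 ± 6.09 CPM in the Control lines, and the nearest on the other side, *Gak* (19.4 kb away), at 119 ± 2.92 and 116 ± 2.85 CPM (between-line SD, n = 4 each). Their log2 fold changes were -0.11 (SE 0.07) and 0.04 (0.04). *Gm10086* and *Gm43364*, annotated closer to *Cplx1*, were not analysed here.

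The 3 neighbours with an unadjusted p under 0.05 were *Mfsd7a* at -0.57 (SE 0.22), *Idua* at -0.25 (0.08) and *Tmed11* at 1.80 (0.76), all with an adjusted p of 0.9997 in the edgeR test. *Tmed11* lies 227 kb away, and its annotated span overlaps that of *Vmn2r8*, a vomeronasal receptor gene on the same strand, so that reads of these genes may be split uncertainly. *Vmn2r8*, named because of this overlap after its values were seen, stood at 1.72 (SE 0.85, adjusted p = 0.9997 in edgeR). The same gene was called up-regulated in HR lines by the paper, which used Cuffdiff, a different test. Its line means ran from 1.15 to 78.9 CPM in Control lines and from 79.9 to 132 CPM in HR lines, a far wider spread among Control lines than that of *Cplx1*, 0.259 to 0.406 CPM.

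**Figure D4:**
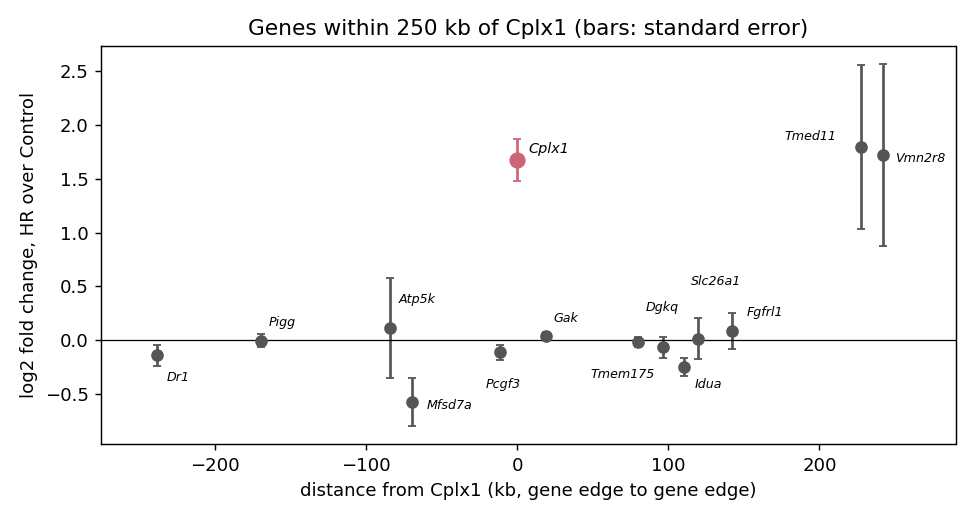
Log2 fold change of HR over Control lines against the distance from *Cplx1* in kb (negative toward lower coordinates), for *Cplx1* (coloured point, 1.67) and 13 neighbours, with bars for the standard error. The genes within 200 kb lie between -0.57 and 0.12, and *Tmed11* and *Vmn2r8*, 227 and 242 kb away, lie at 1.80 and 1.72 with wide errors.

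By Pearson r over the 8 line means of log2 CPM, *Syt3* was closest to *Cplx1* among 16506 other genes tested (r = 0.977). Its Spearman rho was 0.833 (n = 8 lines), and it was the only gene with r over 0.95. Next by r came *Zfp711* (r = 0.898, rho = 0.952), *Lppos* (0.890, 0.762), *Atp13a2* (0.884, 0.952) and *Tec* (0.882, 0.857). By rho, *Zfp711*, *Atp13a2* and *Tec* stood above *Syt3*. The lines fall into HR and Control groups for *Cplx1*, so a high r over all 8 lines favours genes that differ between these groups, and the values share the same libraries. With the mean of each group removed, r with *Syt3* was 0.773 and rho 0.429, with HR line 3 the highest line in both genes. Within the HR lines alone rho was 0.20, and within the Control lines 0.40 (n = 4 each). With the group means removed, the genes with the highest r were *Zmynd8* (r = 0.973), *Lipe* (0.955), *Mir26b* (0.952), *Nprl3* (0.951) and *Prdm15* (0.947). These are the highest of 16506 values, each over 8 lines, and such a choice favours a high r. The correlation of *Cplx1* with *Cplx2* was -0.36 over the line means and -0.29 with the group means removed. With *Omp* it was -0.11 and -0.69.

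**Figure D5:**
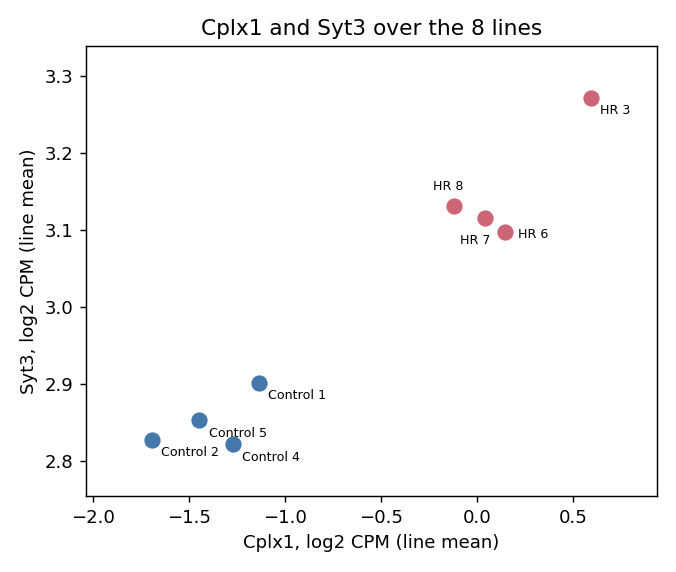
Line means of log2 CPM of *Syt3* (vertical axis) against *Cplx1* (horizontal axis) for the 8 lines. *Syt3* was chosen for the highest Pearson r with *Cplx1* over these points. The 4 HR lines lie at higher values of both genes than the 4 Control lines, which a choice by r over these lines favours. HR line 3 is the highest in both genes.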

How the data were processed

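RNA from VNOs was depleted of ribosomal RNA and sequenced as single-end reads of 75 nucleotides from directional libraries. The authors aligned reads to GRCm38/mm10 with STAR 2.6.1d, accepting 0 mismatches and 1 location per read, so a read over a base where a line differs from the reference was lost. The deposited counts are raw counts per gene. The counting tool, annotation and strand setting are not given in the sources used here. The RPKM values were computed by the authors per gene length and library size, separately for males and females. In the male table, 4 summary entries with 34.9% to 37.3% of its reads were left out, as were 4 entries of 2 repeated gene names. This left 24407 genes with counts and 24350 with RPKM.

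Counts were tested with edgeR 4.0.16 (R 4.3.3): TMM scaling, filterByExpr with a minimum count of 10, and glmQLFTest with terms for sex and linetype, with Benjamini-Hochberg adjustment at 0.05. This fit has no term for the line, so its SE and p between HR and Control lines may be too small for every gene. Log2 CPM used a prior count of 2. Levels of different genes were compared on log2(RPKM + 0.1). Alternatives were DESeq2 1.42.0, its size factors, no filter, limma 3.58.1 voom with line as a random effect, sums over each line, each sex alone, pseudocounts of 0.01 and 1, each line left out, and the line as a replicate block. The ratio of *Cplx1* to *Cplx2* counts and further fits of the interaction were chosen after seeing the data. The scripts were tested on simulated data with known changes. There the libraries of a line were drawn independently, so that test does not cover the likeness of libraries within a line. Depth was 15998552 to 70875276 counts per library, and intervals from counts cover counting error only.

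The male and female library of a line bear the same line number. Their deviations from the group means correlated at 0.321 to 0.708 in the 8 lines over 16507 genes, so the number pairs them. Members and lists were chosen with earlier results of these data known. Genes named were the 4 complexins, release genes with an adjusted p under 0.05 in any test or otherwise the 2 of each list with the smallest unadjusted p and the best known partners of complexin, genes within 250 kb of *Cplx1* with an unadjusted p under 0.05 and its nearest gene on each side, the 5 genes most correlated with *Cplx1* with and without group means, and 3 tissue markers. Some genes this rule selects are not reported here. Protein sequences were not used here.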

Additional observations from a re-analysis of the deposited data

How the results depend on the processing

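The log2 fold change of *Cplx1* in HR over Control lines stayed positive under all 20 alternatives, and 18 of them moved it by less than 1 SD between lines. *Cplx1* was selected on this contrast, and every HR library lay above every Control library. Leaving out a line or a sex could therefore not turn the sign, and only the size is informative. On log2(RPKM + 0.1) the log2 fold change was 1.26 and on log2(RPKM + 1) it was 0.41, where the pseudocount is close to or above the level of the gene. With each line left out in turn it lay between 1.498 and 1.77. For *Cplx2* no alternative gave an adjusted p under 0.05, and the log2 fold change lay between -0.15 and -0.03. No release gene and no neighbour passed the adjusted threshold in any of 15 alternatives.

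The exact sign-flip permutation test over lines gave *Cplx1* a mean log2 difference of 0.34 between females and males at an unadjusted p of 0.0234. With each line left out the fitted difference lay between 0.26 and 0.46. With the line as a replicate block it was 0.40 (adjusted p = 0.28 by edgeR), and for the other results the pairing changed no call. The interaction of sex and linetype for *Cplx1* was -0.0685 without HR line 8, and lay between -0.0685 and 0.33 over the lines left out. For *Cplx2* it turned positive without Control line 2 (0.000922), Control line 4 (0.0508) or HR line 8 (0.0286), with a range of -0.0518 to 0.0508. The difference of *Cplx3* over *Cplx4* was -0.0340 without HR line 3 and lay between -0.0340 and 0.0745 over the lines left out. None of these signs was called in any fit.

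Depth limits *Cplx1*, since 5 to 61 counts per library leave wide intervals, and 13 and 4 counts of *Cplx3* and *Cplx4* allow no comparison. Precision rests on 4 lines a group, and the pools of a line are not independent. Whether males and females were sequenced in separate runs, and whether alleles that differ from the reference lower the counts of some lines, was not tested.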
